A study of Homo sapiens with 6 samples.

Results

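The genes described here were 10 members of the cyclic AMP (cAMP) response: the CREB factors CREB1, ATF1 and CREM, the CRTC coactivators CRTC1, CRTC2 and CRTC3, and the target genes PER1, PDE4B, PDE4D and RGS2. They were taken by gene symbol from a deposited table of 55765 genes, and all 10 had a row. Messenger RNA was measured by sequencing from its 3′ end in OCI-AML2 cells, a human line derived from acute myeloid leukaemia. The 3 treated libraries came from cells given 100 nM MRT199665, and the 3 vehicle libraries from cells given no inhibitor but its vehicle, both for 48 h. MRT199665 is described by its submitters as an inhibitor of the MARK kinases, and SIK kinases are among its other known targets. All groups share this cell line, which the labels describe as cultured clones of single cells, without saying whether the groups or libraries came from different clones or separate cultures. The p-values therefore cover only how these libraries varied, and that variation may be technical.

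When cAMP rises in a cell, protein kinase A (PKA) phosphorylates CREB1, ATF1 and CREM, which bind the cAMP response element (CRE) of their target genes. The CRTC proteins are coactivators of these factors and are held in the cytoplasm by 14-3-3 proteins while SIK kinases keep them phosphorylated. When SIK activity falls, CRTC proteins enter the nucleus and bind CREB at its targets. In monocytes and macrophages this route is known for its control of inflammatory cytokine genes.

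None of the genes of this pathway core passed the test between MRT199665 and vehicle. RGS2, a G protein regulator, had the lowest p, averaging 2.64 ± 0.452 CPM (counts scaled to a common library total) with MRT199665 and 1.80 ± 0.528 CPM with vehicle (mean ± SD, n = 3 libraries each). CREB1 stood at 43.8 ± 4.55 CPM in MRT199665 libraries, against 38.0 ± 1.23 CPM in vehicle libraries (mean ± SD, n = 3 libraries each). PER1 had nearly equal means, 22.7 ± 5.98 CPM in MRT199665 libraries, against 21.8 ± 7.57 CPM in vehicle libraries (mean ± SD, n = 3 libraries each). Outside the core, the PKA inhibitor gene PKIB was higher with MRT199665 and the early response gene EGR1 was lower. Neither passed the test when the replicate number was added as a block, or in most fits that left a single library out.

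CRE sequences near the starts of these genes are shown because these elements are what the CREB factors bind. RefSeq start windows on build GRCh38.p14, each of 300 bases (250 before and 50 from the start on), were found for 9 of the 10 genes (all but CRTC2), 29 windows in all. The full element TGACGTCA, which reads the same on both strands, and its core TGACG, searched on both strands and contained in the full element, are in capitals (CGTCA where the core lies on the other strand). The full element lay in windows of 1 of the 9 genes, CREM, against 2.25% of 27305 genes with a window. By window it lay in 2 of the 29, which overlap and hold the same element, against 1.85% of 35116 windows. The core lay in windows of 4 of the 9, CREM, CRTC3, PDE4D and RGS2, against 28.4% of all those genes. By window, 4 of the 29 held a core outside the full element, besides the 2 with the full element. Over all windows 24.6% held the core. CREM, PDE4B and PDE4D had 7, 6 and 8 windows, and a gene with more windows has more places for a match. The shares per gene are therefore not a like comparison. A match is a description of these letters and not a binding site.
CREM internal start, chr10:35195652-35195951, plus strand: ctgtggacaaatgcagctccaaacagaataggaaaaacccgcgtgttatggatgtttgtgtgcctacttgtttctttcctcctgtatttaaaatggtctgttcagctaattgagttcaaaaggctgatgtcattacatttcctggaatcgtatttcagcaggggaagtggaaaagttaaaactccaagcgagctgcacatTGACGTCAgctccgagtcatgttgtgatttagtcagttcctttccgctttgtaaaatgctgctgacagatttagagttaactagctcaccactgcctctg
CREM upstream start, chr10:35126977-35127276, plus strand: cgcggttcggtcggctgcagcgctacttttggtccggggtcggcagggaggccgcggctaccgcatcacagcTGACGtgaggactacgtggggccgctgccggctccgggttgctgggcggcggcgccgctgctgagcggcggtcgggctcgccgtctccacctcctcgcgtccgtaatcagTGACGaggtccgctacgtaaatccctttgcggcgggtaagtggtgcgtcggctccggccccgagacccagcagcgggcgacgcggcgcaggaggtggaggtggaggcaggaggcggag
PDE4D, 1 of its 8 starts, chr5:59587576-59587875, minus strand: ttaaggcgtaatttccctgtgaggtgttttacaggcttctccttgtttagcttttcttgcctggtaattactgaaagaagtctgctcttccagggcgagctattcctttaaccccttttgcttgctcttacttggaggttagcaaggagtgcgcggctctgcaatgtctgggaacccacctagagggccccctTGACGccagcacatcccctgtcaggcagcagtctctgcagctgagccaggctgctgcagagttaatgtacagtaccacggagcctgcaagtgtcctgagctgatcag
RGS2, its start in the table, chr1:192808789-192809088, plus strand: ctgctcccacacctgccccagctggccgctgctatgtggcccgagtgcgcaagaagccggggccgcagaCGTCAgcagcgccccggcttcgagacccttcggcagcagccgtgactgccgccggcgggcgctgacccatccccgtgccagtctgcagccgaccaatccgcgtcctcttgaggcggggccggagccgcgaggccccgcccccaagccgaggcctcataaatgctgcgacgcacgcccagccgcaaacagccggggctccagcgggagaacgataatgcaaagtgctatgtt
The CREM window with the full element belongs to 1 of 7 annotated starts and has its first base 50 bases before that start. A second start, 52 bases upstream, shares the same element, which lies after that start and begins at its base 3. The upstream CREM window held 2 cores, beginning 178 and 68 bases before the start. In PDE4D the core began 57 bases before the start and in RGS2 181 bases before it. The internal promoter of CREM is known to give rise to the repressor ICER, but counts per gene do not separate the products of these starts.

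Total counts ranged from 5871097 in MRT199665 replicate 2 to 14308650 in MRT199665 replicate 3, and a count of 3 corresponded to between 0.212 and 0.506 CPM across the libraries. MRT199665 replicate 2 and vehicle replicate 2 lay at the ends of the first principal component (48.4 and -36.8, 46.8% of the variance). Of 13 markers of myeloid leukaemia cells 12 were measured well enough to test, and CEBPA had no count in any library. Their summed level was 1717 to 1899 CPM with MRT199665 and 1229 to 1570 CPM with vehicle, and TYROBP was the 1 marker called, higher. Summed erythroid markers reached at most 0.0707 CPM with MRT199665 and 0 with vehicle, T cell markers 28.3 to 33.2 CPM with MRT199665 and 22.3 to 27.4 CPM with vehicle, nearly all from CD4. B cell markers lay between 6.40 and 9.11 CPM with MRT199665 and between 6.70 and 8.99 CPM with vehicle. Epithelial markers summed to 27.8 to 55.1 CPM with MRT199665 and 30.7 to 63.2 CPM with vehicle, mostly CDH1. Fibroblast markers summed to 2.83 to 5.57 CPM with MRT199665 and 2.65 to 3.05 CPM with vehicle. The part of the higher myeloid markers in the results below was not tested. In such bulk libraries more cells that express a marker and more of its RNA per cell cannot be told apart.

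The question asked of the core genes was whether their transcripts differed after 48 h of inhibitor. Of the 10 genes 9 had enough counts to be tested, and CRTC2 had not. The edgeR quasi-likelihood test called 0 of the 9 higher and 0 lower at a Benjamini-Hochberg adjusted p under 0.05, where 0.85% of 13053 tested genes were called higher and 0.398% lower, 1.25% in all. None of the 9 had an unadjusted p under 0.05, against 14.7% of all tested genes, and DESeq2 and limma-voom also called 0. The groups did not overlap for 3 of the 9 genes, CREB1, CRTC1 and RGS2, all higher with MRT199665, where 11.4% of all tested genes were separated in that direction and 10.8% in the other, 22.2% in all. The log2 fold changes, MRT199665 over vehicle, were positive for 6 of 9 genes (median 0.20), beside 50.9% of all tested genes (median 0.01). These 9 values ranged from -0.48 for PDE4B to 0.57 for RGS2.

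**Figure D1:**
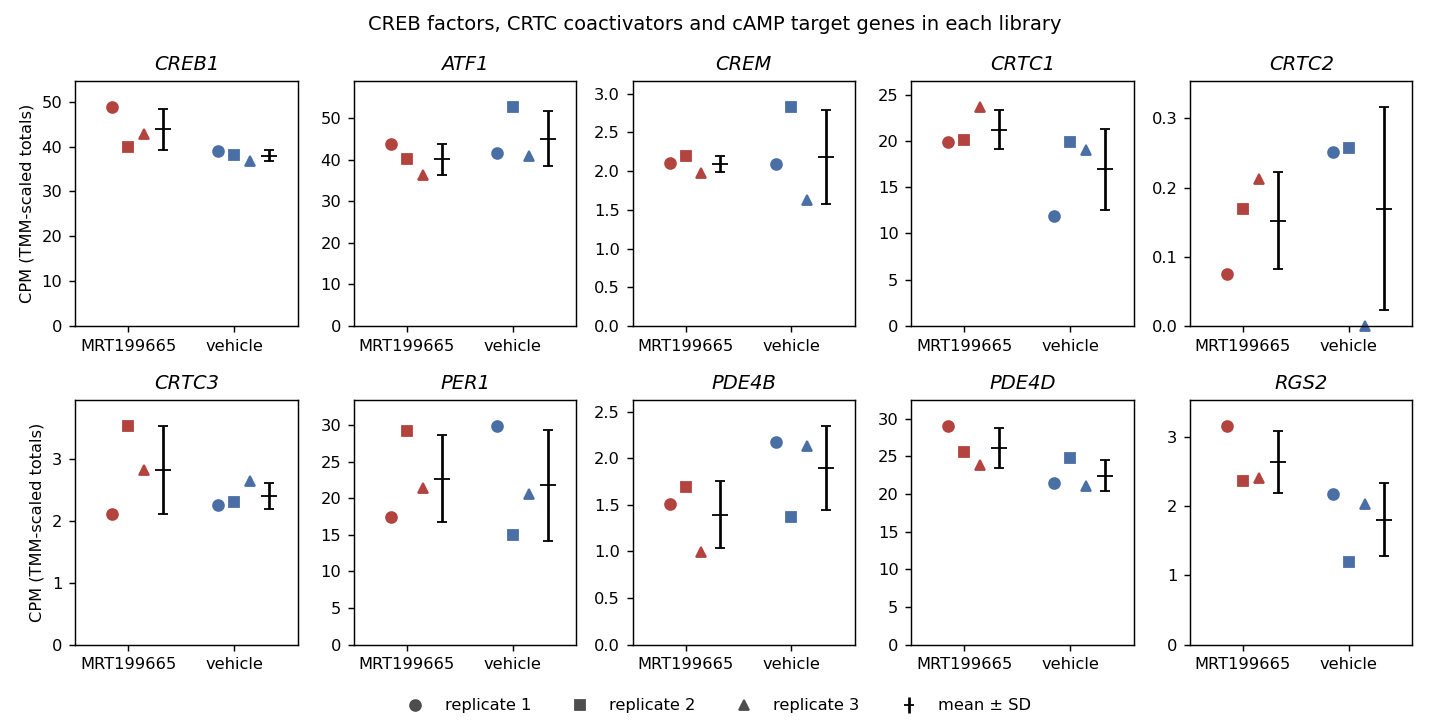
Level of each of the 10 genes in CPM on totals scaled by TMM, with MRT199665 libraries in red and vehicle libraries in blue, marker shapes for replicates and bars for the mean ± SD of 3 libraries. The groups do not overlap for CREB1, CRTC1 and RGS2 and overlap for the other 7 genes, and CRTC2 stays at or below 0.257 CPM in all libraries.

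CREB1, the founding member of the CREB factors, had 48.7, 39.8 and 42.9 CPM in MRT199665 replicates 1, 2 and 3, against 39.1, 38.2 and 36.7 CPM in vehicle replicates 1, 2 and 3. All 3 treated libraries lay above all 3 vehicle libraries, the closest pair being MRT199665 replicate 2 and vehicle replicate 1. The log2 fold change of CREB1 was 0.21 ± 0.12 (SE, edgeR adjusted p = 0.482), which is 1.16-fold with a 95% interval of 0.954 to 1.40. Without MRT199665 replicate 1 it was 0.12 ± 0.14 (SE). METTL21A, an annotated gene on the opposite strand that overlaps CREB1, averaged 32.7 CPM in MRT199665 libraries and 34.5 CPM in vehicle libraries. The labels do not state whether counting used the strand, so it is not known how reads from the overlap of METTL21A and CREB1 were counted.

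ATF1, a close relative that pairs with CREB1, was at 43.7, 40.1 and 36.3 CPM in MRT199665 replicates 1, 2 and 3 and at 41.7, 52.6 and 40.8 CPM in vehicle replicates 1, 2 and 3. The groups overlapped, and the highest value was that of vehicle replicate 2. ATF1 had a log2 fold change of -0.17 ± 0.14 (SE, edgeR adjusted p = 0.639), or 0.889-fold with a 95% interval of 0.710 to 1.11. With vehicle replicate 2 left out it was -0.05 ± 0.14 (SE).

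CREM, whose gene gives both activators and repressors, had 2.11, 2.19 and 1.98 CPM in MRT199665 replicates 1, 2 and 3, against 2.09, 2.83 and 1.63 CPM in vehicle replicates 1, 2 and 3. These rest on 69 counts over the treated and 74 over the vehicle libraries, and the vehicle libraries enclosed all treated ones. The log2 fold change of CREM was -0.08 ± 0.28 (SE, edgeR adjusted p = 0.944), with a 95% interval of 0.608 to 1.48 on the fold scale. It was positive without vehicle replicate 2, at 0.15 ± 0.31 (SE).

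CRTC1, a coactivator best known from neurons, had 264, 119 and 334 counts in MRT199665 replicates 1, 2 and 3 and 142, 232 and 187 in vehicle replicates 1, 2 and 3. On scaled totals its level was 19.89, 20.1 and 23.6 CPM in MRT199665 replicates 1, 2 and 3, against 11.9, 19.86 and 19.0 CPM in vehicle replicates 1, 2 and 3. Vehicle replicate 1 stood apart from the other 5 libraries, and the separation of the groups hung on the difference between 19.89 and 19.86 CPM. With unscaled totals the groups overlapped, since MRT199665 replicate 1 was at 19.63 and vehicle replicate 3 at 19.65 CPM. The log2 fold change of CRTC1 was 0.33 ± 0.20 (SE, edgeR adjusted p = 0.506), or 1.26-fold with a 95% interval of 0.914 to 1.73, and it was 0.13 ± 0.15 (SE) without vehicle replicate 1.

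CRTC3 had 2.11, 3.54 and 2.83 CPM in MRT199665 replicates 1, 2 and 3, against 2.26, 2.31 and 2.64 CPM in vehicle replicates 1, 2 and 3. The treated libraries held both the lowest and the highest value, so the groups overlapped. Its log2 fold change was 0.20 ± 0.27 (SE, edgeR adjusted p = 0.790), with a 95% interval of 0.753 to 1.75 on the fold scale. Its size hung on single treated libraries, being 0.38 ± 0.28 (SE) without MRT199665 replicate 1 and 0.05 ± 0.27 (SE) without MRT199665 replicate 2.

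CRTC2, the coactivator known from liver gluconeogenesis, had 1, 1 and 3 counts in MRT199665 replicates 1, 2 and 3, against 3, 3 and 0 counts in vehicle replicates 1, 2 and 3. The sums, 5 with MRT199665 and 6 with vehicle, have exact 95% Poisson intervals of 1.62 to 11.7 and of 2.20 to 13.1 counts, which cover counting error only. No library exceeded 3 counts, so a difference in CRTC2 inside these intervals could not be resolved.

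**Figure D2:**
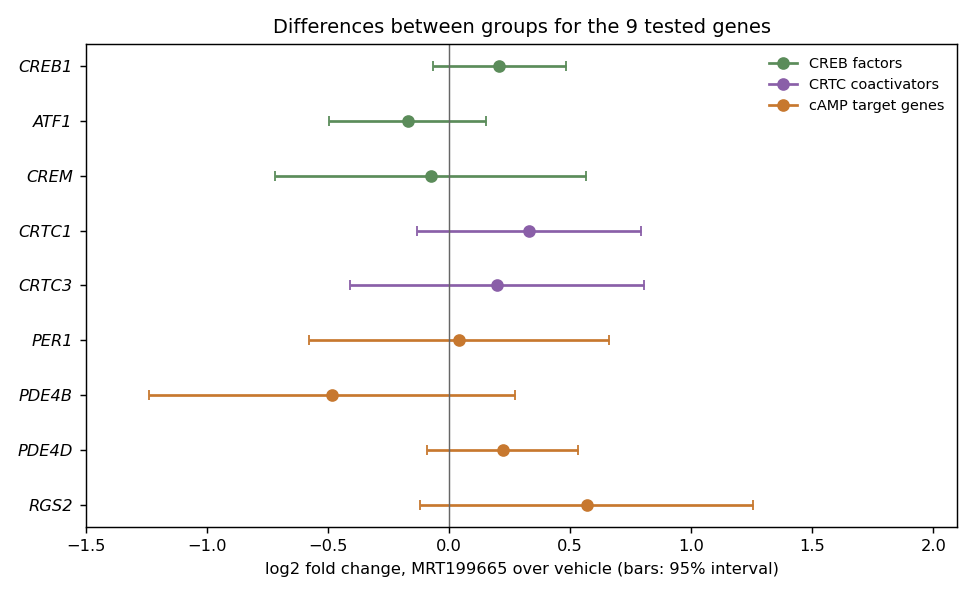
Log2 fold change of each of the 9 tested genes, MRT199665 over vehicle, with bars for the 95% interval of the edgeR fit and colours for CREB factors, CRTC coactivators and cAMP target genes. Every interval includes 0, and the widest are those of PDE4B (-1.24 to 0.27) and RGS2 (-0.12 to 1.26).

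The fitted values of the target genes were positive for RGS2, PDE4D and PER1 and negative for PDE4B. RGS2, which shortens signalling by G protein subunits and is induced by cAMP, had 3.16, 2.36 and 2.405 CPM in MRT199665 replicates 1, 2 and 3, against 2.18, 1.20 and 2.03 CPM in vehicle replicates 1, 2 and 3. All treated libraries lay above all vehicle libraries, and vehicle replicate 2 was the lowest. The fitted ratio was 1.48 with a 95% interval of 0.920 to 2.39, and the log2 fold change of RGS2 was 0.57 ± 0.30 (SE, edgeR adjusted p = 0.435). That rests on 90 counts with MRT199665 and 60 with vehicle, and without vehicle replicate 2 the log2 fold change was 0.33 ± 0.30 (SE).

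PDE4D, a phosphodiesterase that degrades cAMP and is induced by it, was at 29.1, 25.6 and 23.8 CPM in MRT199665 replicates 1, 2 and 3, against 21.5, 24.8 and 21.0 CPM in vehicle replicates 1, 2 and 3. The groups overlapped only in that vehicle replicate 2 exceeded MRT199665 replicate 3. Its log2 fold change was 0.22 ± 0.14 (SE, edgeR adjusted p = 0.512), or 1.17-fold with a 95% interval of 0.939 to 1.45, and it was 0.13 ± 0.15 (SE) without MRT199665 replicate 1.

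PDE4B, the related phosphodiesterase of inflammatory cells, had a negative value. Its levels were 1.51, 1.69 and 0.990 CPM in MRT199665 replicates 1, 2 and 3, against 2.18, 1.37 and 2.13 CPM in vehicle replicates 1, 2 and 3. Vehicle replicate 2 lay among the treated libraries, and the sums were 44 counts with MRT199665 and 63 with vehicle. The log2 fold change of PDE4B was -0.48 ± 0.33 (SE, edgeR adjusted p = 0.556), or 0.716-fold with a 95% interval of 0.424 to 1.21. It was -0.27 ± 0.37 (SE) without MRT199665 replicate 3.

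PER1 is a circadian clock repressor with CRE-driven induction, and its 1 start window searched above held neither the full element nor the core. PER1 varied more within the groups than between them. It had 17.4, 29.2 and 21.4 CPM in MRT199665 replicates 1, 2 and 3, against 29.9, 14.9 and 20.5 CPM in vehicle replicates 1, 2 and 3. The highest library was 1.68 times the lowest with MRT199665 and 2.01 times with vehicle. From high to low, PER1 ran through vehicle replicate 1, MRT199665 replicates 2 and 3, vehicle replicate 3, MRT199665 replicate 1 and vehicle replicate 2, whose positions on the first principal component were 10.6, 48.4, 6.23, -18.0, -10.4 and -36.8. The part of this component in the PER1 level was not tested. The log2 fold change of PER1 was 0.04 ± 0.27 (SE, edgeR adjusted p = 0.974), with a 95% interval of 0.670 to 1.58 on the fold scale, and its sign was set by single libraries. It was -0.17 ± 0.27 (SE) without MRT199665 replicate 2, -0.18 ± 0.25 (SE) without vehicle replicate 2 and -0.38 ± 0.21 (SE) without both.

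**Figure D3:**
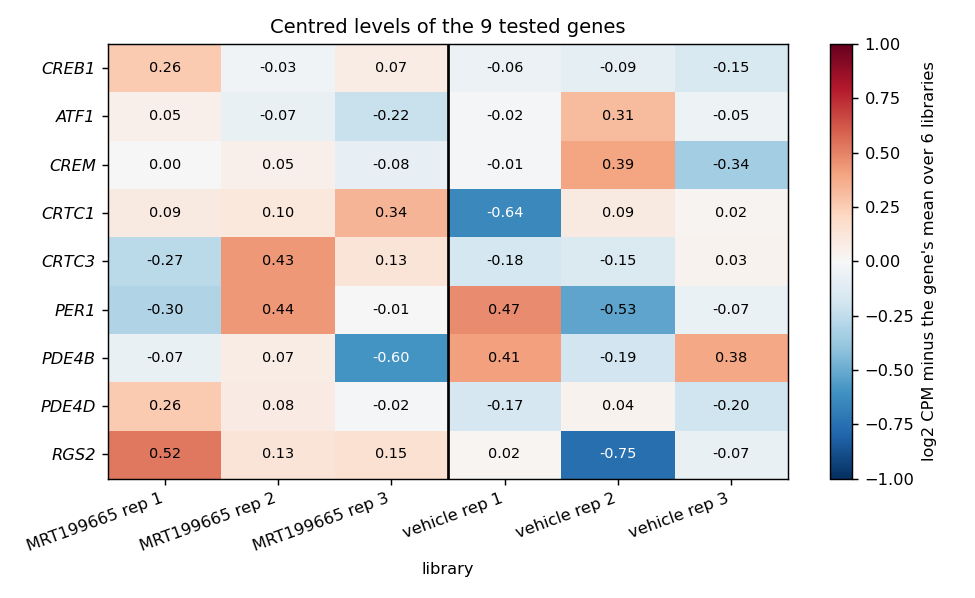
Log2 CPM of each tested gene minus its mean over the 6 libraries, with MRT199665 libraries left of the black line and vehicle libraries right of it. Vehicle replicate 2 is lowest for RGS2 (-0.75) and PER1 (-0.53) and highest for CREM (0.39) and ATF1 (0.31), while CRTC1 is lowest in vehicle replicate 1 (-0.64).

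Averaged over the 4 target genes, the centred log2 CPM was 0.10, 0.18 and -0.12 in MRT199665 replicates 1, 2 and 3, against 0.18, -0.36 and 0.01 in vehicle replicates 1, 2 and 3. The groups overlapped, and vehicle replicate 2 was the lowest library. For the CREB factors the same average lay between -0.08 and 0.10 with MRT199665 and between -0.18 and 0.20 with vehicle, so the treated libraries fell inside the vehicle range. For the tested CRTC coactivators it was -0.09, 0.27 and 0.23 in MRT199665 replicates 1, 2 and 3, against -0.41, -0.03 and 0.03 in vehicle replicates 1, 2 and 3. These groups also overlapped, as MRT199665 replicate 1 lay below vehicle replicates 2 and 3.

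The genes whose log2 CPM most resembled that of RGS2 over the 6 libraries were RP11-339B21.15 (Pearson r = 0.988), NCKAP5L (0.983) and SPECC1 (0.979). They were the closest of 13052 other tested genes, so values this near to 1 are a selection and carry no test. SPECC1 had 34.2, 26.8 and 25.7 CPM in MRT199665 replicates 1, 2 and 3, against 21.3, 14.6 and 22.4 CPM in vehicle replicates 1, 2 and 3, and was not called (adjusted p = 0.212). As for RGS2, its highest library was MRT199665 replicate 1 and its lowest vehicle replicate 2.

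The wider cAMP pathway was read from 7 lists written from general knowledge, with earlier results of these data known. They held 110 genes beside the 10, of which 69 were tested. Of these 69, PKIB rose and EGR1 fell, where 0.85% of all tested genes were called higher and 0.398% lower. A positive log2 fold change was found for 36 of the 69 (median 0.03), beside 50.9% of all tested genes. Unadjusted p was under 0.05 for 14 of the 69 genes, 5 higher and 9 lower, beside 7.64% and 7.11% of all tested genes.

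PKIB encodes an inhibitor peptide that binds the catalytic subunits of PKA. It had 4.90, 5.23 and 4.17 CPM in MRT199665 replicates 1, 2 and 3, against 1.59, 1.88 and 0.914 CPM in vehicle replicates 1, 2 and 3. Each treated library lay more than 2 CPM above each vehicle library. PKIB was 3.18-fold higher with MRT199665, with a log2 fold change of 1.67 ± 0.29 (SE, edgeR adjusted p = 0.0349) and a 95% interval of 2.02 to 5.01 on the fold scale. Leaving out MRT199665 replicate 1, 2 or 3 ended the call (edgeR adjusted p = 0.119, 0.0799 and 0.136), as did leaving out vehicle replicate 1 or 3 (0.0676 and 0.130). In those 5 fits the log2 fold change of PKIB lay between 1.44 and 1.75. In the list of PKA and EPAC genes PKIB was the 1 of 9 tested members called. The other 8 had log2 fold changes between -0.98 for RAPGEF3, a cAMP-activated exchange factor named after its value was seen, and 0.40.

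EGR1, an early response transcription factor with several routes of induction, had 3.84, 5.23 and 2.76 CPM in MRT199665 replicates 1, 2 and 3, against 9.54, 8.73 and 12.6 CPM in vehicle replicates 1, 2 and 3. The groups were far apart, and EGR1 fell, at 0.370-fold with a log2 fold change of -1.43 ± 0.26 (SE, edgeR adjusted p = 0.0393). This call was lost when MRT199665 replicate 1 or 3 was left out (edgeR adjusted p = 0.140 and 0.185), or any vehicle library (0.0587, 0.0537 and 0.203 for replicates 1, 2 and 3). In those 5 fits the log2 fold change of EGR1 lay between -1.55 and -1.22. It was the 1 of 15 tested members called in the list of other cAMP target genes. In that list 13 of 15 log2 fold changes were negative, with a median of -0.30, beside a median of 0.01 over all tested genes. Of the 15 genes 6 had an unadjusted p under 0.05, all lower, and 5 had separated groups, all lower, beside 7.11% and 10.8% of all tested genes. That list was written with earlier results of these data known, so its counts and median are a description and carry no test. The other 17 of 32 listed targets had too few counts to test. Among these, named after their counts were seen, NR4A1 had 1, 0 and 5 counts in MRT199665 replicates 1, 2 and 3 and 1, 0 and 0 in vehicle replicates 1, 2 and 3. SIK1, itself a CREB target and a kinase that restrains CRTC, had 10, 4 and 7 counts in MRT199665 replicates 1, 2 and 3 and 8, 4 and 3 in vehicle replicates 1, 2 and 3.

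**Figure D4:**
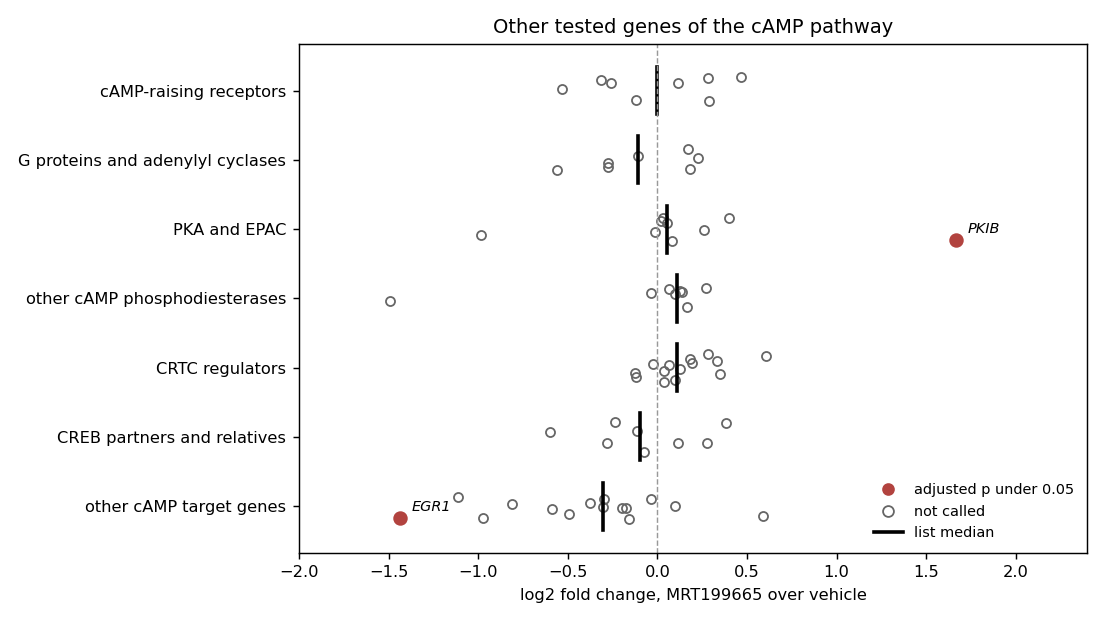
Log2 fold change, MRT199665 over vehicle, of the 69 tested genes in 7 lists of the cAMP pathway, with filled red points for adjusted p under 0.05 and a black line at each list's median. PKIB at 1.67 and EGR1 at -1.43 are the filled points, and the list of other cAMP target genes has the lowest median (-0.30). The lists were written with earlier results of these data known.

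In the other 5 lists the edgeR test, DESeq2 and limma-voom called 0 genes. Among 14 tested regulators of CRTC, 11 had positive log2 fold changes (median 0.11) and 2 had an unadjusted p under 0.05, near the 14.7% of all tested genes. SIK3, a kinase that restrains CRTC, had 48.2, 33.7 and 42.3 CPM in MRT199665 replicates 1, 2 and 3, against 24.4, 29.1 and 28.5 CPM in vehicle replicates 1, 2 and 3 (adjusted p = 0.121). PPP3CA, a catalytic subunit of the phosphatase calcineurin that releases CRTC, had a log2 fold change of 0.28 ± 0.11 (SE, edgeR adjusted p = 0.303).

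Of 8 tested CREB partners and relatives, 3 were positive (median -0.10) and 2 had an unadjusted p under 0.05, beside 14.7% of all tested genes. CREBBP, the acetyltransferase that binds phosphorylated CREB, stood at 63.1 ± 1.67 CPM in MRT199665 libraries, against 48.4 ± 1.42 CPM in vehicle libraries (mean ± SD, n = 3 libraries each). Its groups did not overlap, and its log2 fold change was 0.38 ± 0.10 (SE, edgeR adjusted p = 0.134). CREBZF, a bZIP relative, stood at 0.27 ± 0.12 (SE, edgeR adjusted p = 0.335).

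Among 8 tested further cAMP phosphodiesterases, 6 were positive (median 0.11) and 1 had an unadjusted p under 0.05, a share near the 14.7% of all tested genes. That gene was PDE8B, a high-affinity cAMP phosphodiesterase, with 0.678, 0.675 and 0.849 CPM in MRT199665 replicates 1, 2 and 3, against 1.76, 2.74 and 1.83 CPM in vehicle replicates 1, 2 and 3 (adjusted p = 0.0827). PDE3B, a phosphodiesterase inhibited by cyclic GMP, had a log2 fold change of 0.14 ± 0.14 (SE, edgeR adjusted p = 0.696).

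Of 7 tested G protein and adenylyl cyclase genes, 3 were positive (median -0.11), and 1, the cyclase gene ADCY9, had an unadjusted p under 0.05, again near the 14.7% of all tested genes. ADCY9 stood at 8.70 ± 1.53 CPM in MRT199665 libraries, against 12.7 ± 1.48 CPM in vehicle libraries (mean ± SD, n = 3 libraries each, edgeR adjusted p = 0.199). GNAI2, an inhibitory G protein subunit of leukocytes, had a log2 fold change of 0.23 ± 0.11 (SE, edgeR adjusted p = 0.381). Of 8 tested receptors that raise cAMP, 4 were positive and 0 had an unadjusted p under 0.05, where 14.7% of all tested genes did. MC1R, the melanocortin receptor, had a log2 fold change of 0.47 ± 0.30 (SE, edgeR adjusted p = 0.532).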

How the data were processed

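The deposited table, per its header, holds 1 column of gene counts for each of the 6 libraries, as whole numbers that the authors had not normalized. The tools named are STAR 2.4, HTSeq 0.6.1 and DESeq2, with the hg19 build, per the submitters' processing notes. The annotation, strand setting and read filters are not given in the sources used here, and per the labels' protocols a Lexogen 3′ kit was used. Depth was 5871097 to 14308650 counts.

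Groups and replicate numbers came from the titles in the labels. The test was the quasi-likelihood F test of edgeR 4.0.16 (R 4.3.3, functions glmQLFit and glmQLFTest) with TMM scaling and group as its single term, after filterByExpr with a minimum count of 10 and a minimum total of 15, which left 13053 genes. Calls were two-sided at a Benjamini-Hochberg adjusted p under 0.05 over these genes. SE was the log2 fold change divided by the square root of F, the basis of the 95% intervals. CPM used library totals times TMM factors. The procedure was tested on simulated data.

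The 10 genes and all lists were chosen with earlier results of these data known. Beside the 10 genes, each pathway list's called members were named, or where none was called the 2 with the lowest p, together with the 3 genes most like the core gene with the lowest p. The values of 1 gene that this rule named are not reported here. Promoter windows came from RefSeq, on a later build than the counts, and were used only for sequence. Chi-square per degree of freedom between libraries of a group was at least 8.59, so none was treated as a copy of another. Alternatives were other scalings and filters, DESeq2 1.42.0, limma-voom (limma 3.58.1), the replicate number as a block, and leaving out libraries.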

Additional observations from a re-analysis of the deposited data

How the results depend on the processing

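None of the 9 tested core genes was called under any of the 15 alternatives, and the lowest adjusted p was 0.321, for RGS2. Log2 fold changes kept their sign for 7 of the 9 genes. The exceptions were PER1, which was -0.38 without both replicates 2 and -0.18 to 0.34 when single libraries were left out, and CREM, which was 0.12 without both replicates 2 and -0.24 to 0.15 when single libraries were left out. CREM, CRTC3, PDE4B and RGS2 did not enter the filter with a minimum count of 50. Of the 110 further pathway genes, 2 were called higher and 5 lower without a low-count filter, 0 higher with the minimum count of 50, which removed PKIB, and 0 to 1 in each direction when single libraries were left out. Over all genes, 373 were called higher and 271 lower without a filter, 217 and 146 by DESeq2, and 29 to 79 higher and 20 to 55 lower when single libraries were left out. With 3 libraries per group the data could not resolve differences inside the intervals given above. The cause of these shifts was not tested.

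With the replicate number as a block, 7 genes were called higher and 5 lower, and 0 pathway genes in either direction. Same-numbered libraries did not deviate together (correlations of -0.547, -0.467 and 0.0182 for numbers 1, 2 and 3). These are deviations from means of 3 libraries, so they cannot exclude that same-numbered libraries were paired, and the titles give only the number.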
